A study of Mus musculus with 10 samples.

Results

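Calcineurin, its RCAN regulators and its NFAT substrates were followed in the hippocampus of mice with extra Dyrk1a. The 10 genes were Ppp3ca, Ppp3cb, Ppp3cc and Ppp3r1 of calcineurin, Rcan1 and Rcan2 of the RCAN family, and Nfatc1, Nfatc2, Nfatc3 and Nfatc4 of the NFAT family, out of 19938 genes measured. Each had a single transcript cluster, the set of probes that the array summarises as one value, and none shared its cluster with another gene. The mutants were 5 Tg(Dyrk1a) mice, a line in which a bacterial artificial chromosome adds a copy of Dyrk1a, and the controls were 5 wild-type littermates. All were males of 16 weeks, and each gave 1 array from the whole hippocampus of both sides. The labels give the background as C57BL/6N and the methods of the study give C57BL/6J, so the substrain is not settled here. The study used this line as a model of an added dose of Dyrk1a alone, within a set of Down syndrome models.

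Calcineurin is a phosphatase switched on by calcium and calmodulin. In neurons it dephosphorylates NFAT transcription factors of the cytoplasmic NFATc group, which then enter the nucleus, while DYRK1A and GSK3 kinases phosphorylate them again and send them back to the cytoplasm. RCAN proteins bind calcineurin and restrain it, and RCAN1 is itself encoded by a gene that NFAT switches on through an internal promoter. DYRK1A and RCAN1 are thus both known brakes on NFAT. Phosphorylation and nuclear entry are properties of the proteins, whereas the arrays measured mRNA. The comparison asked whether the mRNA of any of these genes differed between Tg(Dyrk1a) and wild-type hippocampi.

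Rcan1 has 2 annotated transcript starts, and the array does not separate them, because the single Rcan1 transcript cluster gives 1 value per mouse. The 250 bases before each start are shown for that reason, and those before the start of Nfatc4 because Nfatc4 had the largest difference among the 10 genes. Sequences are from RefSeq on GRCm38.p6, read 5′ to 3′ on the gene's strand, and capitals mark the NFAT core letters GGAAA on either strand, so TTTCC is marked as well.
Rcan1, first start, minus strand, chr16:92466170-92466419: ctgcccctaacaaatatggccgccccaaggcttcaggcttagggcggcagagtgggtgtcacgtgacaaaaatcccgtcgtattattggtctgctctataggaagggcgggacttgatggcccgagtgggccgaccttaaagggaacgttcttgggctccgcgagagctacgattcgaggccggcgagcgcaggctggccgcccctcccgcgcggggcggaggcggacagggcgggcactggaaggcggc
Rcan1, internal start, minus strand, chr16:92400079-92400328: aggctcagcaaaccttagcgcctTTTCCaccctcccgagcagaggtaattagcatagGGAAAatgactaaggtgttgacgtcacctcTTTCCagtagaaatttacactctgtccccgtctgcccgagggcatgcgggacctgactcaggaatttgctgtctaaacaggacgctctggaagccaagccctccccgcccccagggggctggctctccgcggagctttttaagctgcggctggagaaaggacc
Nfatc4, plus strand, chr14:55824545-55824794: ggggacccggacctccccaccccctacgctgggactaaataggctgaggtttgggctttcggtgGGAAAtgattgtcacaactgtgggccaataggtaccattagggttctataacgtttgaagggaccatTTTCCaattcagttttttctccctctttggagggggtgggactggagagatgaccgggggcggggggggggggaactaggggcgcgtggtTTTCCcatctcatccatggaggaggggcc

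The window before the first Rcan1 start held 0 NFAT cores, and the window before the internal start held 3, beginning 227, 193 and 163 bases before the transcript. The internal window also held 1 copy of the AP-1 letters TGACTCA, which did not overlap an NFAT core. The Nfatc4 window held 3 NFAT cores. Of 32851 promoter windows of the same length, 55.6% held at least 1 core, 6.39% held 3 or more, and 4.46% held the AP-1 letters. The count over the 10 genes left out chromosome 18, where Nfatc1 lies, while the 32851 windows did not. Over the 7 genes with an entry elsewhere there were 12 windows, of which 7 held a core. Ppp3cb also had 3, as did 1 of the windows of Nfatc2. The AP-1 letters were also in 1 of the windows of Rcan2, beginning 25 bases before the transcript. These matches are descriptions of the letters and not of binding, which was not measured.

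The deposited values were already normalized, with array medians from 6.57 to 6.66 on the log2 scale and correlations between arrays from 0.994 to 0.998. These values do not show whether the tissue in the arrays was alike. Dyrk1a was higher in Tg(Dyrk1a), at 11.65 ± 0.02 against 11.18 ± 0.06 in wild-type mice (SD, n = 5 each), a log2 fold change of 0.47 ± 0.03 (SE) with a limma adjusted p of 0.000138, and its groups did not overlap. Markers of the hippocampus (11 measured of 12 listed genes, among them Prox1 and Camk2a) had mean levels of 10.50 to 10.60 in Tg(Dyrk1a) and 10.43 to 10.57 in wild-type arrays. The choroid plexus score, the mean deviation of 13 marker genes from their own averages, was over 0.5 in 3 arrays, Tg(Dyrk1a) replicates 2 and 4 and wild type replicate 5, called choroid-rich from here on. The score ran from -0.73 to 1.17 in Tg(Dyrk1a) and from -0.57 to 1.15 in wild-type mice. In whole tissue, fewer cells of a type and less mRNA per cell cannot be told apart.

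None of the 10 genes changed by the limma test. Over all 23410 annotated transcript clusters 2 passed an adjusted p of 0.05, or 0.00854% (0.00427% higher and 0.00427% lower in Tg(Dyrk1a)), and 0 of the 10 genes did, with limma adjusted p of 0.947 or above. One gene, Nfatc4, had an unadjusted limma p under 0.05, with the lower mean in Tg(Dyrk1a), beside 4.93% of all transcript clusters. The groups overlapped for all 10 genes, while 0.807% of all transcript clusters had groups that did not overlap (0.534% higher and 0.273% lower in Tg(Dyrk1a)). There were 5 genes with higher and 5 with lower means in Tg(Dyrk1a). Their median log2 fold change was 0.00345, beside 0.00199 over all 19938 genes, and their median absolute log2 fold change was 0.0184, beside 0.0326.

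**Figure D1:**
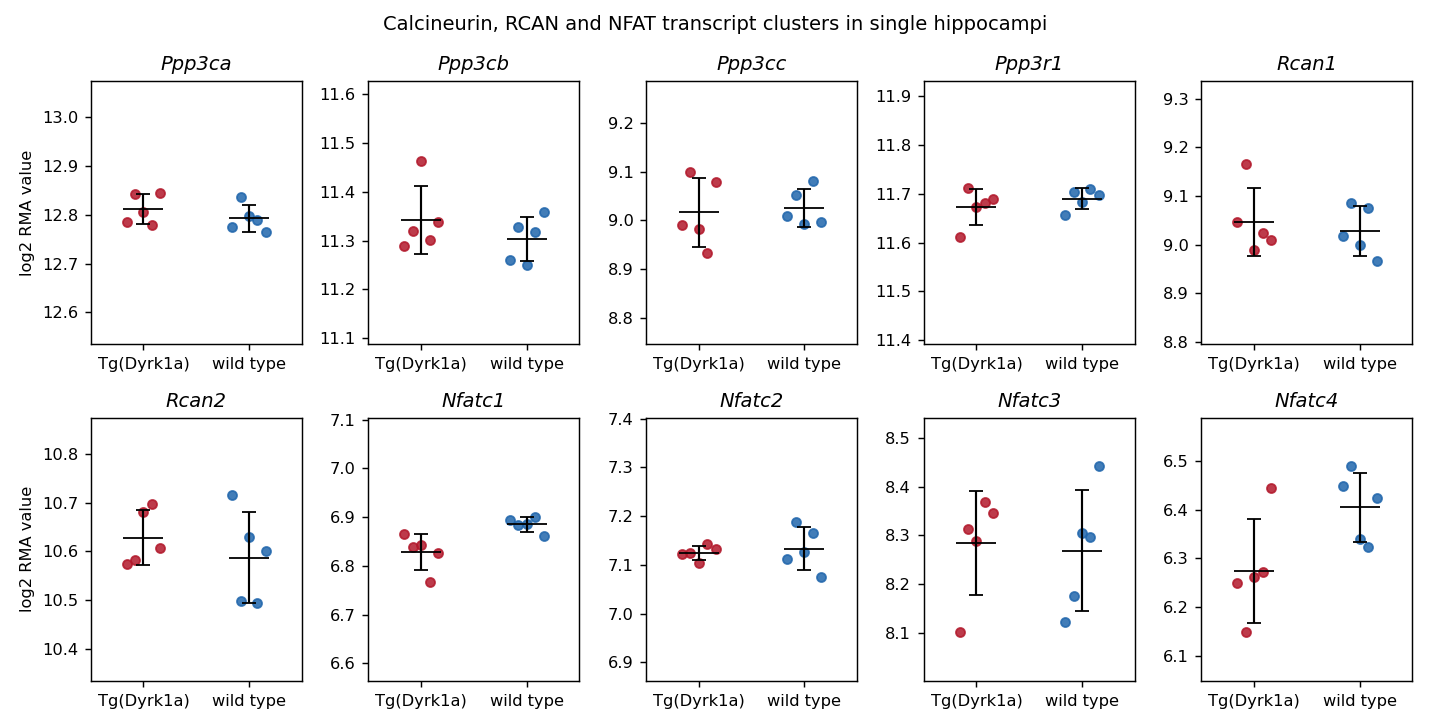
Log2 RMA value (vertical axes, each spanning the same range of 0.54) of the transcript cluster of each of the 10 genes in Tg(Dyrk1a) and wild-type hippocampi, 1 point per mouse. Bars give each genotype's mean and SD (n = 5), and the genotypes overlap in all 10 panels, while Nfatc4 and Nfatc1 have 4 of 5 Tg(Dyrk1a) mice below all 5 wild-type mice.

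Among the catalytic subunits, Ppp3ca encodes the alpha isoform, the main one of the brain. It stood at 12.79, 12.84, 12.80, 12.78 and 12.84 in Tg(Dyrk1a) replicates 1 to 5, against 12.78, 12.84, 12.80, 12.79 and 12.76 in wild-type replicates 1 to 5. The genotypes overlapped over most of their range, and the pooled SD of 0.0292 exceeded that of only 2.80% of transcript clusters. Its log2 fold change was 0.02 ± 0.03 (SE), with a 95% interval from -0.04 to 0.08.

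Ppp3cb encodes the beta isoform. Its values were 11.29, 11.32, 11.46, 11.30 and 11.34 in Tg(Dyrk1a), against 11.26, 11.33, 11.25, 11.32 and 11.36 in wild-type mice. Tg(Dyrk1a) replicate 3 stood above all the others, and the remaining Tg(Dyrk1a) mice lay within the wild-type range. The log2 fold change of 0.04 ± 0.04 (SE) became 0.00848 without that mouse.

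Ppp3cc, the gamma isoform known mainly from testis, was at 8.99, 9.10, 8.98, 8.93 and 9.08 in Tg(Dyrk1a), against 9.01, 9.05, 8.99, 9.08 and 8.996 in wild-type mice. The Tg(Dyrk1a) mice included both the highest and the lowest value. Ppp3r1 encodes the calcium-binding regulatory subunit that every brain calcineurin needs, and it stood at 11.61, 11.71, 11.67, 11.68 and 11.69 in Tg(Dyrk1a), against 11.66, 11.70, 11.68, 11.71 and 11.70 in wild-type mice. Tg(Dyrk1a) replicate 1 stood below the wild-type range, and the others lay within it or at its upper end. The log2 fold changes were -0.01 ± 0.04 (SE) for Ppp3cc and -0.02 ± 0.03 (SE) for Ppp3r1. The Ppp3r1 value was -0.00123 without Tg(Dyrk1a) replicate 1, and with any other mouse left out it lay between -0.03 and -0.01.

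Over the 4 calcineurin genes the limma 95% intervals lay between 0.938-fold and 1.09-fold of wild type. Exact permutation p, two-sided and unadjusted, were 0.310 for Ppp3ca, 0.365 for Ppp3cb, 0.802 for Ppp3cc and 0.476 for Ppp3r1, where 5 mice against 5 allow no p below 0.00794. Ppp3r2, the regulatory subunit of testis, was at 4.69 ± 0.07 in Tg(Dyrk1a) and 4.74 ± 0.03 in wild-type mice (SD, n = 5 each), a log2 fold change of -0.05 ± 0.04 (SE).

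Rcan1, the calcineurin inhibitor encoded on chromosome 16 from 92391951 to 92466169, did not pass the test. Its values were 9.05, 9.17, 8.99, 9.02 and 9.01 in Tg(Dyrk1a), against 9.02, 9.09, 8.999, 9.08 and 8.97 in wild-type mice. Tg(Dyrk1a) replicate 2 was the highest of the 10, and 3 of 5 Tg(Dyrk1a) mice lay below the wild-type mean. The means were 9.05 ± 0.07 in Tg(Dyrk1a) and 9.03 ± 0.05 in wild-type mice (SD, n = 5 each). The log2 fold change was 0.02 ± 0.04 (SE), with a 95% interval from 0.954-fold to 1.08-fold (limma adjusted p = 0.98), and the exact permutation p was 0.683. It was -0.01 without Tg(Dyrk1a) replicate 2 and -0.03 without the 3 choroid-rich arrays, which include that mouse.

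Rcan2 encodes a second inhibitor of calcineurin that is abundant in brain. It stood at 10.57, 10.58, 10.68, 10.70 and 10.61 in Tg(Dyrk1a), against 10.71, 10.50, 10.63, 10.49 and 10.60 in wild-type mice. The wild-type mice held both the highest and the lowest value. Its log2 fold change was 0.04 ± 0.05 (SE), with an interval from 0.959-fold to 1.10-fold and an exact permutation p of 0.405. With 1 mouse left out it ran from 0.02, without wild type replicate 4 or replicate 2, to 0.07, without wild type replicate 1. Rcan3, the third gene of the family, was at 7.80 ± 0.06 in Tg(Dyrk1a) and 7.79 ± 0.10 in wild-type mice (SD, n = 5 each), a log2 fold change of 0.02 ± 0.05 (SE).

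**Figure D2:**
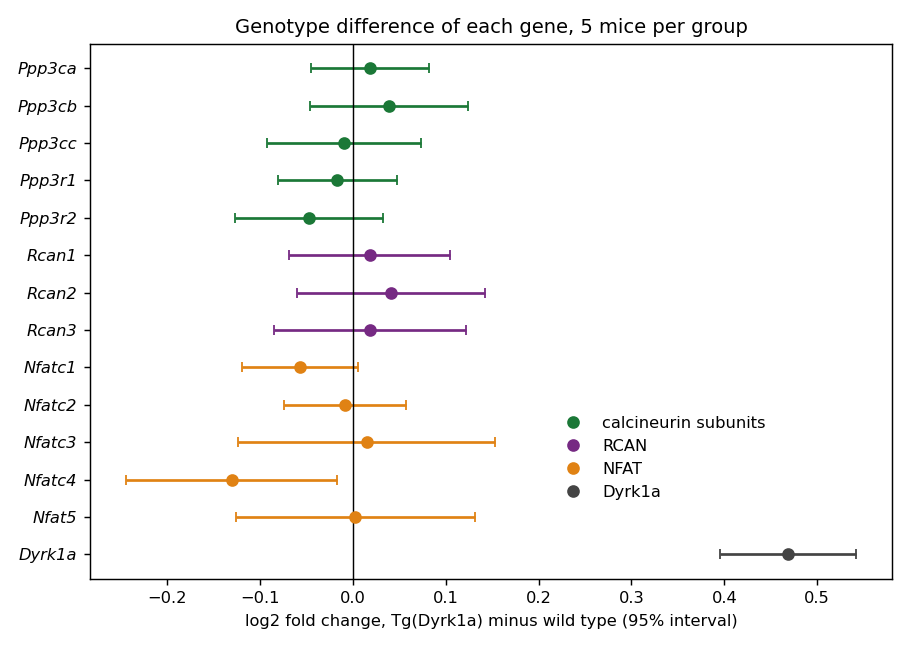
Difference in log2 value between Tg(Dyrk1a) and wild type (horizontal axis, above 0 where Tg(Dyrk1a) was higher) for the calcineurin, RCAN and NFAT genes and Dyrk1a. Each point is the limma estimate from 5 mice of each genotype with its unadjusted 95% interval; the interval of Nfatc4 ends below 0 at -0.02, those of the other family members include 0, and Dyrk1a stands apart at 0.47.

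Nfatc4, one of the calcineurin-regulated NFAT factors and the one best known from hippocampal neurons, had the lowest log2 fold change of the 10 genes. Its transcript cluster (10415396) lies in a gene on chromosome 14 from 55824795 to 55833943. It was at 6.25, 6.15, 6.26, 6.27 and 6.44 in Tg(Dyrk1a), against 6.45, 6.49, 6.34, 6.32 and 6.42 in wild-type mice. In 4 of 5 Tg(Dyrk1a) mice it was below every wild-type mouse, and Tg(Dyrk1a) replicate 5 was above the wild-type mean. The means were 6.27 ± 0.11 in Tg(Dyrk1a) and 6.40 ± 0.07 in wild-type mice (SD, n = 5 each). Both lay below the lowest array median of 6.57, so the cluster is dim by this measure. It was not among the dimmest 30% of annotated clusters, which 1 alternative left out. The log2 fold change was -0.13 ± 0.05 (SE), or 0.914-fold with a 95% interval from 0.845 to 0.988.

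With adjustment over the whole array this difference missed the threshold (limma adjusted p = 0.947, unadjusted p = 0.0277; exact permutation p = 0.0556). FCROS, the rank method of the study, put Nfatc4 in its outer 0.025 on the lower side with an f-value of 0.00949, as it did 2.11% of all transcript clusters, with 2.72% on the higher side and 4.83% in all. It called none of the other 9 genes, whose f-values ran from 0.116 for Nfatc1 to 0.808 for Rcan2. Without the 3 choroid-rich arrays, the Nfatc4 log2 fold change was -0.08 ± 0.06 (SE; limma adjusted p = 0.888). With that score as a covariate it was -0.13 ± 0.05 (SE; limma adjusted p = 0.837). Tg(Dyrk1a) replicate 2, the lowest mouse for Nfatc4, also had the highest dentate gyrus score at 0.26 and the highest meninges score at 0.25. For the dentate gyrus the other 9 mice lay between -0.21 and 0.08. The same array had the highest score for pyramidal and granule neurons (0.08), astrocytes (0.08), oligodendrocytes (0.16) and choroid plexus (1.17). For T cells its score of -0.09 was the lowest. In the remaining lists it was at neither end. Over the whole lists, 7 of 8 dentate gyrus markers had higher means in Tg(Dyrk1a), with scores from -0.07 to 0.26 in Tg(Dyrk1a) and from -0.21 to 0.06 in wild-type mice. All 10 meninges markers had higher means in Tg(Dyrk1a), with scores from -0.10 to 0.25 in Tg(Dyrk1a) and from -0.22 to 0.05 in wild-type mice, and 7 of 10 endothelial and mural markers did, with scores from 0.00605 to 0.0989 in Tg(Dyrk1a) and from -0.145 to 0.01 in wild-type mice. Of the thalamus and habenula markers 9 of 10 had lower means in Tg(Dyrk1a), with scores from -0.07 to 0.02 in Tg(Dyrk1a) and from -0.09 to 0.30 in wild-type mice. Means of GABAergic interneuron markers were higher in Tg(Dyrk1a) for 7 of 8. Their scores ran from -0.05 to 0.14 in Tg(Dyrk1a) and from -0.13 to 0.03 in wild-type mice. An unadjusted limma p under 0.05 was found for 3 dentate gyrus, 3 meninges, 4 endothelial and mural, and 2 interneuron markers, all higher in Tg(Dyrk1a). It was also found for 1 pyramidal and granule neuron marker (C1ql2, also a dentate gyrus marker) and 1 T cell marker. The lists of thalamus and habenula, astrocytes, oligodendrocytes, microglia and choroid plexus had 0. Over all transcript clusters 2.99% were higher and 1.94% lower at this p. Of all genes, 10303 had higher and 9635 lower means. After adjustment 0 markers of these lists passed limma. Whether these markers take part in the Nfatc4 value was not tested.

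Nfatc1, an NFAT factor best known from lymphocytes, bone and heart valves, also had a lower mean in Tg(Dyrk1a). It was at 6.86, 6.84, 6.84, 6.77 and 6.83 in Tg(Dyrk1a), against 6.89, 6.88, 6.89, 6.90 and 6.86 in wild-type mice. All 5 Tg(Dyrk1a) mice lay below the wild-type mean and 4 of 5 below every wild-type mouse. The log2 fold change was -0.06 ± 0.03 (SE), with an interval from 0.921-fold to 1.00-fold. Its exact permutation p of 0.0159 and its unadjusted limma p of 0.0713 fell on either side of 0.05, and the limma adjusted p was 0.947. The pooled SD of Nfatc1 was 0.028, smaller than that of all but 2.30% of transcript clusters.

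**Figure D3:**
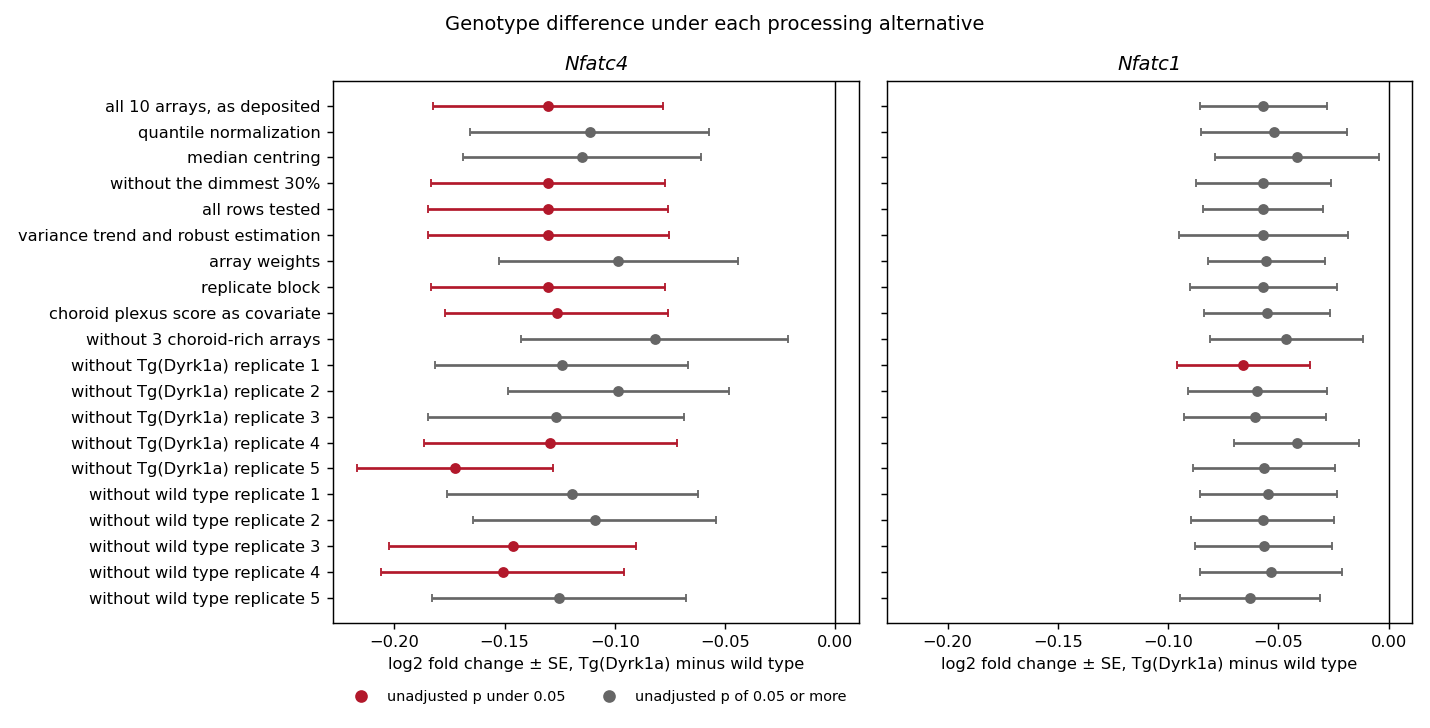
Difference in log2 value between Tg(Dyrk1a) and wild type (horizontal axes, the same range) for Nfatc4 and Nfatc1 under each processing alternative, as points with limma SE bars, red where the unadjusted limma p was under 0.05. All points lie below 0 for both genes, from -0.17 to -0.08 for Nfatc4 and from -0.07 to -0.04 for Nfatc1, and Nfatc4 is closest to 0 without the 3 choroid-rich arrays.

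Nfatc2 and Nfatc3 complete the calcineurin-regulated NFAT factors. Nfatc2 was at 7.12, 7.12, 7.10, 7.14 and 7.13 in Tg(Dyrk1a), against 7.11, 7.19, 7.13, 7.16 and 7.08 in wild-type mice. All 5 Tg(Dyrk1a) mice lay inside the wild-type range. Its log2 fold change of -0.01 ± 0.03 (SE) had an exact permutation p of 0.706.

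Nfatc3, an NFAT factor expressed in neurons and muscle, varied most between mice of the same genotype. It stood at 8.10, 8.31, 8.29, 8.37 and 8.35 in Tg(Dyrk1a), against 8.12, 8.18, 8.30, 8.30 and 8.44 in wild-type mice. The 3 choroid-rich arrays held 8.31, 8.37 and 8.44, among them the highest of each genotype. Its pooled SD of 0.116 exceeded that of 88.2% of transcript clusters. The genotypes differed by less than this spread, by 0.02 ± 0.06 (SE) on the log2 scale with an exact permutation p of 0.841. Nfat5, which lacks calcineurin control and responds to osmotic stress, was at 9.25 ± 0.14 in Tg(Dyrk1a) and 9.25 ± 0.05 in wild-type mice (SD, n = 5 each).

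Over the 4 NFAT genes the 95% intervals lay between 0.845-fold and 1.11-fold of wild type. The widest interval of the 10 genes was that of Nfatc3, from -0.12 to 0.15 on the log2 scale. No interval of the 10 genes reached the log2 fold change of 0.47 that Dyrk1a had, on either side of 0.

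The wider pathway was read from 8 lists of genes by role, in which 72 genes besides the 10 were measured of 78 listed. Only Dyrk1a passed limma, and 34 had higher and 38 lower means in Tg(Dyrk1a). Their median log2 fold change was -0.00309, beside 0.00199 over all genes. An unadjusted limma p under 0.05 was found for 4 higher and 2 lower, beside 2.99% higher and 1.94% lower of all transcript clusters. None of those named below apart from Dyrk1a passed (limma adjusted p = 0.947 each).

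The list drawn up as calcium sensors, anchors and inhibitors of calcineurin had a median log2 fold change of 0.01 over 9 measured of 10 listed genes. Of these, 0 passed the limma threshold, and action on calcineurin was not tested for any of them. Ppif, the mitochondrial cyclophilin, was at 10.42 ± 0.03 in Tg(Dyrk1a) and 10.30 ± 0.06 in wild-type mice (SD, n = 5 each), a log2 fold change of 0.12 ± 0.03 (SE) with 5 of 5 Tg(Dyrk1a) mice above the wild-type mean. Its unadjusted limma p was 0.00536 and its exact permutation p 0.0159. Calcium entry genes had a median of 0.01 over 9 measured of 11 listed, with 0 past the threshold, and Cacna1d, an L-type calcium channel subunit, was at 0.08 ± 0.04 (SE).

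Kinases and partners of NFAT had a median log2 fold change of -0.01 over 17 measured of 19 listed genes, with 1 past the threshold, Dyrk1a itself. Dyrk1b, a related kinase, was at 9.53 ± 0.08 in Tg(Dyrk1a) and 9.72 ± 0.07 in wild-type mice (SD, n = 5 each), a log2 fold change of -0.19 ± 0.05 (SE). All 5 Tg(Dyrk1a) mice lay below all 5 wild-type mice for Dyrk1b, as they did for 0.273% of all transcript clusters. Its exact permutation p was 0.00794, the value that any such separation of 5 mice from 5 gives.

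Other calcineurin substrates had a median of 0.01 over 18 genes, with 0 past the threshold. Ppp1r1a, which encodes inhibitor 1 of protein phosphatase 1 and is dephosphorylated by calcineurin, was at 0.11 ± 0.05 (SE; exact permutation p = 0.0714). Genes described as NFAT targets, several of them known from T cells, had a median of -0.04 over 17 measured of 19 listed genes. Of these, 5 were higher, 12 lower and 0 past the threshold, beside 10303 higher and 9635 lower of all genes. The means of Tnf, Il2, Il4, Il13, Ifng, Csf2, Fasl, Acp5, Ctsk and Pdcd1 lay below the lowest array median of 6.57 in both genotypes. Egr2, a transcription factor induced by activity, was at 7.05 ± 0.12 in Tg(Dyrk1a) and 7.27 ± 0.14 in wild-type mice (SD, n = 5 each), a log2 fold change of -0.23 ± 0.07 (SE; exact permutation p = 0.0238) with 5 of 5 Tg(Dyrk1a) mice below the wild-type mean. The 6 measured T cell markers of 8 listed had scores from -0.09 to 0.05 in Tg(Dyrk1a) and from -0.04 to 0.09 in wild-type mice, with 5 of 6 lower in Tg(Dyrk1a), and their part in these values was not tested.

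**Figure D4:**
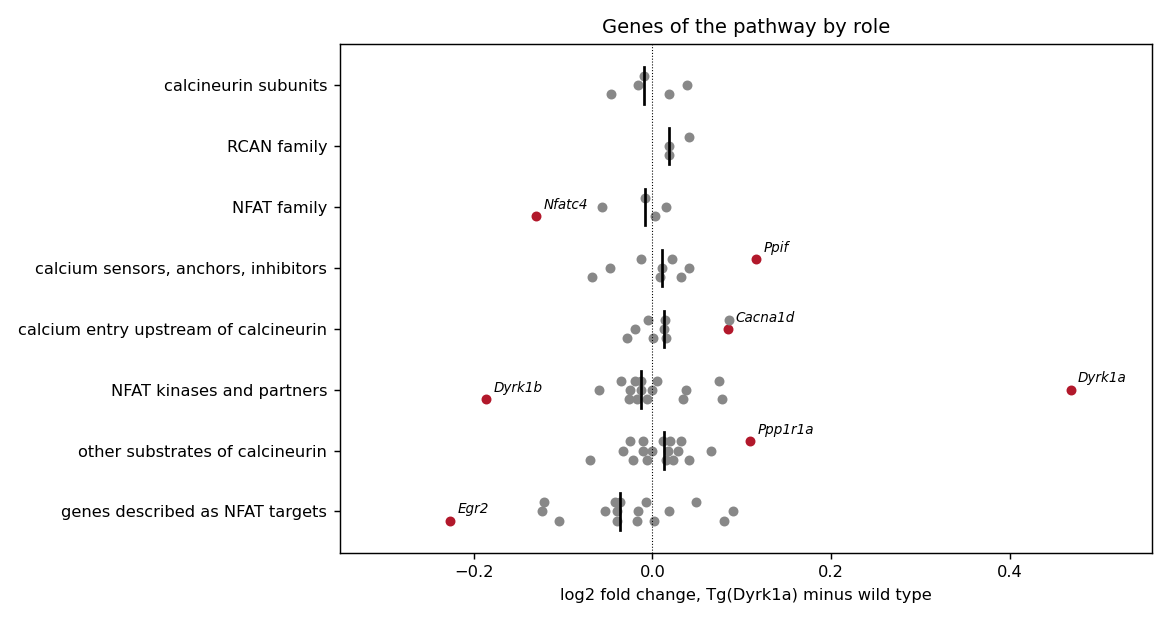
Difference in log2 value between Tg(Dyrk1a) and wild type (horizontal axis) for the measured genes of 8 pathway lists, 1 point per gene, red and named where the unadjusted limma p was under 0.05, with a black line at the median of each list. The list medians lie between -0.04 and 0.02, and Dyrk1a at 0.47 is the only gene past the adjusted threshold.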

How the data were processed

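Biotinylated cDNA from the RNA of 10 hippocampi was read on Affymetrix Mouse Gene 1.0 ST arrays. The values deposited by the authors are on the log2 scale from RMA, a procedure that corrects background, normalizes arrays and condenses the probes of a cluster to 1 value, and that can compress the fold changes of dim clusters. The submitters' processing notes name RMA, limma and mm10. Which arrays were normalized together is not given in the sources used here. A log2 value compares mice for 1 transcript cluster and not different clusters, whose probes differ, and precision rests on the number of arrays and the spread between mice.

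Of 35556 rows, 23410 had a platform annotation, 21789 of them with 1 gene. A gene was represented by its cluster with the highest mean. The genotype comparison used lmFit and eBayes of limma 3.58.1 under R 4.3.3 without covariates, with Benjamini-Hochberg adjustment over the 23410 clusters. Single genes also had a two-sided exact permutation test over all 252 assignments. FCROS was rewritten from its description, with 25% of ranks trimmed at each end. Alternatives were other normalizations and filters, a variance trend, array weights, a replicate block, the choroid plexus score as covariate, and arrays left out. The genes, lists and naming rule (the 10 genes, their families, Dyrk1a and list genes with an unadjusted p under 0.05) were chosen with earlier results of these data known. The labels call the arrays biological replicates and give no litter or date for them. Positions are from RefSeq on GRCm38.p6. The scripts were tested on simulated data of 23410 clusters, 200 of them changed, in which limma recovered 68.7% of changes of 0.25, 94.0% of 0.5 and 98.5% of 1 on the log2 scale. The same simulated fit made 8 false calls. The recovered share depends on how many clusters change, and only 2 passed in the real arrays. The simulated shares therefore do not carry over to these arrays.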

Additional observations from a re-analysis of the deposited data

Results flagged for a closer look

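In groups of 5 mice, the highest or lowest value was set against its nearest neighbour by Dixon's criterion for 19 genes, 38 groups in all, and 2 values stood apart, where chance gives about 1 in 20 groups. Ppp3cb in Tg(Dyrk1a) replicate 3 was the highest of its group at 11.46, with the next mouse at 11.34. Egr2 in Tg(Dyrk1a) replicate 2 was the lowest of its group at 6.83, with the next at 7.08.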

How the results depend on the processing

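Dyrk1a passed the threshold and 0 of the 10 genes did under each limma alternative and without each array in turn. FCROS called 1 of the 10, Nfatc4, with and without trimming. Of 200 values of the 10 genes under alternatives, 188 kept their direction. Ppp3cc and Nfatc2 turned to 0.00617 and 0.00696 with median centring, and Rcan1 to -0.0117 with array weights and to -0.0295 without the choroid-rich arrays. With 1 array left out, log2 fold changes ran from -0.0298 to 0.0120 for Ppp3cc, from -0.0228 to 0.00543 for Nfatc2, from -0.0116 to 0.0327 for Rcan1 and from -0.0211 to 0.0610 for Nfatc3, so these genes have no settled direction. Nfatc4 ran from -0.17 without Tg(Dyrk1a) replicate 5 to -0.10 without Tg(Dyrk1a) replicate 2, and its unadjusted limma p was under 0.05 in 4 of these 10 fits.

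The transcript clusters past the threshold numbered 1 with median centring, with all rows tested, with a variance trend and robust estimation, with the replicate block and without the choroid-rich arrays, 5 with array weights, 1131 with FCROS and 1160 with FCROS without trimming, and 1 to 2 with 1 array left out. Of the 10 genes and the 72 others of the pathway lists together, FCROS called 7, Nfatc4 among them, and, without trimming, 6, where limma called 1. FCROS with trimming called 4.83% of all clusters. Its f-value places the mean rank of each cluster on a normal curve fitted to all clusters. Some clusters therefore fall in the outer 0.025 on each side whether or not the genotypes differ. The causes of the other changes in these counts were not tested. Same-numbered mice deviated with correlations from -0.285 to 0.276. The labels give no litter, so these values cannot show whether replicate numbers pair the mice. The mean of all clusters of a gene changes only Dyrk1a, which then stood at 0.31. Median centring moved the median of all clusters to 0.0163, from 0.00104 as deposited.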
